A study of Mus musculus with 18 samples.

Results

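The knockdown cells at day 12 were mouse embryonic fibroblasts (MEFs) in which reprogramming toward induced pluripotent stem (iPS) cells had been switched on while 1 of 2 RNA-processing factors was depleted. They comprised 8 of the 18 RNA-seq libraries of the series, chosen by their labels alone: 2 replicate libraries for each of 4 short hairpin RNAs (shRNAs), named shCPSF3#1, shCPSF3#2, shUL1#1 and shUL1#2. The first pair targets *Cpsf3* and the second *Hnrnpul1*. The comparison asked which changes between day 0 and day 12 took place in cells depleted of either factor.

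All cells carried *Collagen-OKSM* and *M2rtta*, so that doxycycline turned on OCT4, SOX2, KLF4 and MYC, and all came from primary cultures of male embryos. The reference was the pair of day 0 libraries from non-infected cells (NI) of the same dataset, grown in fibroblast medium. At day 12 the reference was the pair of libraries from cells given a scrambled shRNA (shSCR). The knockdown and shSCR cells were infected with lentivirus on the day that doxycycline and LIF were added, were later sorted for the GFP of the vector, and were seeded on irradiated fibroblast feeders until harvest with trypsin. Day, doxycycline, infection, sorting, medium and feeders thus changed together between NI and day 12 and cannot be told apart in that comparison, whereas the comparison with shSCR holds them equal. A separate overexpression dataset gave 2 NI libraries and 2 day 12 libraries of cells infected with an empty retroviral vector (Empty). A label field marks those 2 NI libraries as day 12 against their titles, which were followed, and every Empty value against day 0 rests on that.

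CPSF3 is the endonuclease that cuts pre-mRNA at the polyadenylation site, and hnRNP UL1 is an RNA-binding protein of the hnRNP U family. When fibroblasts are reprogrammed, they first lose their contractile and mesenchymal program and take on epithelial features, and only a minority of cells goes on to activate the pluripotency network. Alternative splicing of many genes shifts along the way, which is measured here as the percent spliced in (PSI), the share of a gene's transcripts that include an exon or keep an intron.

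The 4 shRNAs match 21-base stretches of coding exons, shown here in capitals with 4 transcript bases on either side in lower case, since they define the 4 groups. The *Cpsf3* targets lie on the + strand of chromosome 12 (mm10) at chr12:21302460-21302480 in exon 10 of 18 and at chr12:21308936-21308956 in exon 14 of 18. Both *Hnrnpul1* targets lie on the − strand of chromosome 7 in exon 10 of 15, at chr7:25733027-25733047 and chr7:25733059-25733079.
shCPSF3#1: attaCCAGCAAACCAGTGAATTTATtcgt
shCPSF3#2: aaagCCTGCTCTGAAGGTGTTCAAAagca
shUL1#1: gctgCCCGAAAGAAGCGAAACTATAtcct
shUL1#2: ccacTCAGTGCCTCAACCGTCTTATtcag

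The 12 libraries of the dataset held 98882289 to 108390722 reads on the 9435 listed genes, with 98882289 to 105006758 in the knockdown libraries. Levels are given as the deposited scaled CPM (reads per gene scaled to the size of the library), and a log2 fold change is the difference of log2(scaled CPM + 1). Adjusted p-values come from limma across all genes. In one of the label fields, the shUL1#2 libraries are marked as day 0 against their title, which was followed. Without them 4156 genes differed from day 0 in place of 4554. At day 12, libraries with the same replicate number deviated together, and 2072 genes were higher and 2409 lower in replicates 1 than in replicates 2. This split is given beside the gene lists.

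*Cpsf3* mRNA stood at 84.7 and 82.2 scaled CPM in NI and at 86.7 and 117.9 in shSCR. It was 38.6 and 49.99 with shCPSF3#1, 42.4 and 77.1 with shCPSF3#2, and 74.2 to 88.5 with the shRNAs against *Hnrnpul1*. The library labelled shCPSF3#2 replicate 2 lay within the range of the shUL1 libraries. Averaged over both shRNAs, *Cpsf3* was lower than in NI (log2 fold change −0.72, adjusted p = 0.0394) and lower than in shSCR (−0.997 ± 0.240, standard error, adjusted p = 0.0207). The latter call was lost without shCPSF3#1 replicate 1 (adjusted p = 0.0516) or shSCR replicate 2 (adjusted p = 0.169).

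*Hnrnpul1* mRNA was 186 and 198 in NI and 156 and 185 in shSCR. The shUL1#1 libraries had 55.7 and 85.8, the shUL1#2 libraries 38.7 and 63.7, and the shCPSF3 libraries 118 to 166, so that the shUL1 values did not overlap any other group. The mean of the shRNAs against *Hnrnpul1* was below NI (−1.70, adjusted p = 0.000887) and below shSCR (−1.52 ± 0.23, adjusted p = 0.0101). The call against shSCR was lost without shSCR replicate 1 (adjusted p = 0.0513) or replicate 2 (adjusted p = 0.076). Over all 8 knockdown libraries *Hnrnpul1* was lower than in NI (−1.10 ± 0.21, adjusted p = 0.00387).

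Expression changed widely in the knockdown cells. In the mean of the 4 shRNAs 2511 of 9435 genes rose from day 0 (26.6% of genes tested) and 2043 fell (21.7%), or 1699 and 2214 after quantile normalization. The shSCR cells had 2122 rises (22.5%) and 2075 falls (22.0%) against the same NI libraries. With the replicate number as a block 3151 genes rose from day 0 and 2856 fell with knockdown. These are the background of the block counts against NI below. Rises of over 1 on the log2 scale numbered 1142 and falls of that size 499 in knockdown cells, against 1134 and 769 in shSCR cells. Beyond 3 on the log2 scale there were 143 rises and 6 falls with knockdown and 149 rises and 31 falls with shSCR. Genes low in most samples are not in the table, and most libraries are from day 12. A gene expressed only in NI can thus be missing, so rises and falls are not on an equal footing.

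Taking each shRNA alone, 1432 genes rose and 909 fell with all 4 of them. Each shRNA by itself gave between 3348 and 4056 changed genes. All 8 knockdown libraries lay above both NI libraries for 2803 genes (29.7%) and below both for 2355 (25.0%). Both counts of called genes depended on the NI libraries, since the total was 2347 without NI replicate 1 and 2713 without NI replicate 2.

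A direct comparison of knockdown with shSCR at day 12, in which the NI libraries cancel out, gave 1334 genes higher (14.1%) and 753 lower (7.98%) in knockdown cells. With the replicate number as a block these became 2368 (25.1%) and 2009 (21.3%). The total of 2087 was 1038 without shSCR replicate 1, 488 without shSCR replicate 2 and 1385 without shUL1#2 replicate 1. With only the day 12 libraries of replicate number 1 it was 376, and with only those of number 2 it was 2, but these fits hold a single shSCR library and take the 4 shRNAs as 1 group, so the share of the drop that comes from the replicate set cannot be told apart. Among the 2511 genes that rose from day 0, 456 (18.2%) were higher and 299 (11.9%) lower than in shSCR, or 736 (29.3%) and 555 (22.1%) with the block, where 25.1% and 21.3% of all genes were. Of the 2043 that fell, 315 (15.4%) were higher and 100 (4.9%) lower than in shSCR, or 548 (26.8%) and 299 (14.6%) with the block. These cross counts share the knockdown libraries.

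**Figure D1:**
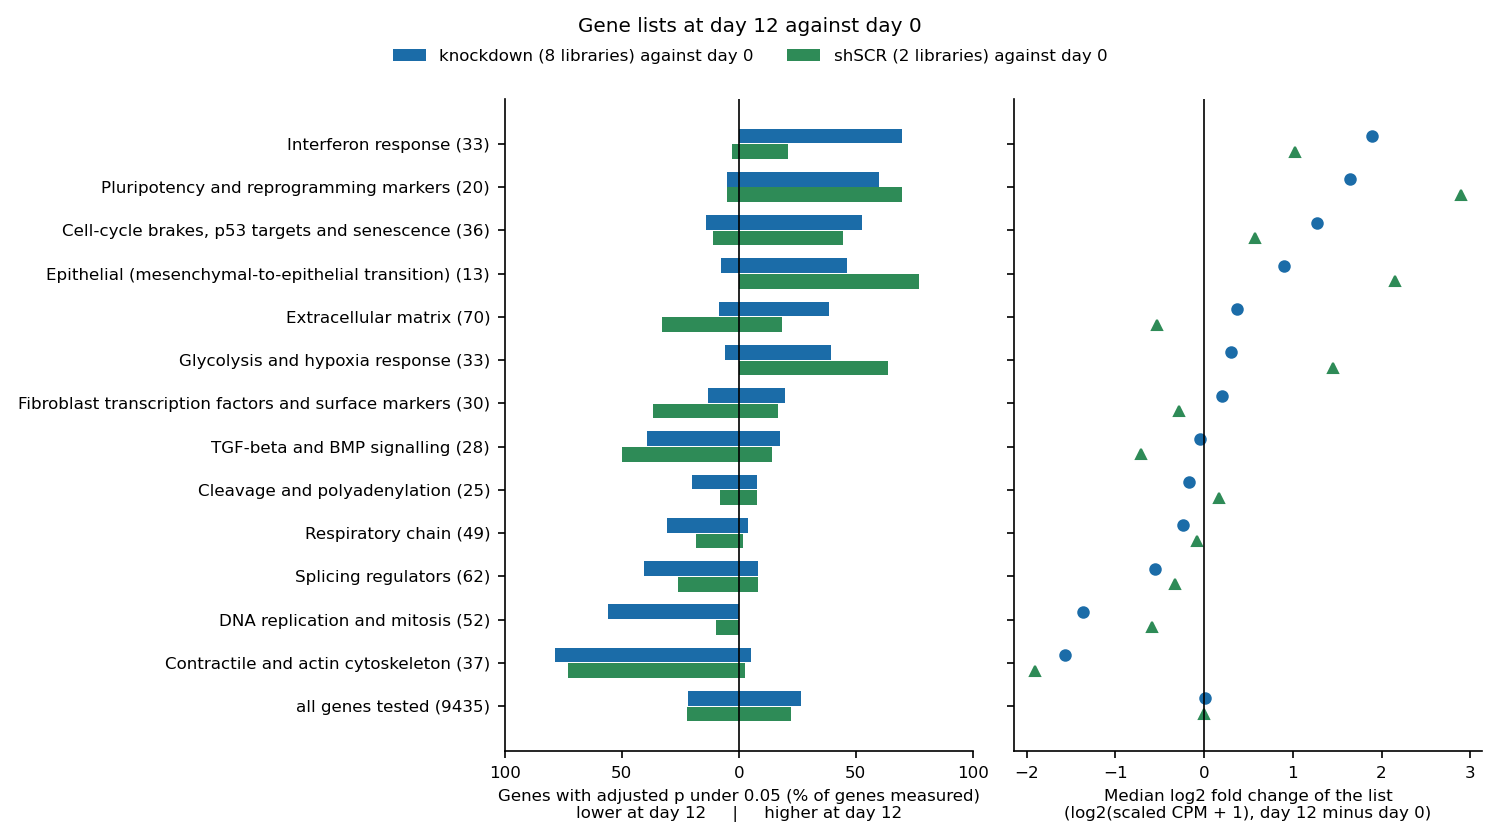
Gene lists at day 12 against day 0. The left panel gives the percent of measured genes of each list (number in brackets) with an adjusted p under 0.05, lower to the left and higher to the right, and the right panel gives the list's median log2 fold change. Blue marks the 8 knockdown libraries and green the 2 shSCR libraries. The interferon and cell-cycle brake lists sat to the right in knockdown cells, and the contractile and DNA replication lists to the left, with medians of −1.57 and −1.37 for the latter.

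The genes with the largest rises in knockdown cells are given first. *Lyz2*, the myeloid form of lysozyme, was at 1.27 and 2.99 scaled CPM in NI and at 226, 718 and 1676 (lowest, median and highest of the 8) in knockdown cells. It rose by 7.83 ± 0.50 on the log2 scale (adjusted p = 2.21e-05), and its shSCR values of 249 and 132 were near or below the lower end of the knockdown range. Reads of *Lyz2* and of its near-identical copy *Lyz1* may have been split in counting, so its level is uncertain.

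*Serpina3n*, an acute-phase protease inhibitor of a multicopy family, went from 3.58 and 4.62 in NI to 382, 1134 and 2043 in knockdown cells (7.45 ± 0.77, adjusted p = 1.81e-04). *Selenop*, the plasma selenium carrier, was at 5.85 and 7.58 in NI and at 267, 420.3 and 541 in knockdown cells (5.73 ± 0.24, adjusted p = 4.97e-06). These *Selenop* values all lay above shSCR, which had 118 and 206, and the difference from shSCR was called (1.38 ± 0.24, adjusted p = 0.00825), though not without shSCR replicate 1 (adjusted p = 0.0547). *Lum*, the collagen-binding proteoglycan lumican, rose from 3.85 and 5.18 to 351, 642 and 965 (6.78 ± 0.43, adjusted p = 2.18e-05). Lumican too was higher than in shSCR, at 167 and 54.2 (2.64 ± 0.43, adjusted p = 0.00609), except without shSCR replicate 2 (adjusted p = 0.0528).

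*C3*, the central complement component, had the widest range among these genes. It was 3.81 and 3.53 in NI, 69.0, 1309 and 4418 in knockdown cells and 1506 and 48.1 in shSCR. The call against day 0 (6.89 ± 2.23, adjusted p = 0.0338) was lost without NI replicate 1 or 2, shUL1#1 replicate 1, or shUL1#2 replicate 1 (adjusted p from 0.0516 to 0.158). Replicates 1 exceeded replicates 2 by 5.06 on the log2 scale for *C3*, by 3.92 for *Cp* (ceruloplasmin, a copper carrier) and by 2.72 for *Mmp3* (stromelysin, a matrix protease).

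*Cp* went from 1.73 and 2.29 to 38.4, 327 and 1569.8 (6.12, adjusted p = 0.021), a call lost without NI replicate 1 (adjusted p = 0.128) or NI replicate 2 (adjusted p = 0.106). *Mmp3* was 17.3 and 6.18 in NI and 261 to 4461 in knockdown cells (6.04, adjusted p = 0.00545), with the call lost without NI replicate 2 (adjusted p = 0.0635). By the rule that chose them, the 10 genes had all 8 knockdown libraries above both NI libraries. *Il1rn*, the antagonist of the interleukin-1 receptor, rose by 6.26 (adjusted p = 1.29e-04). *Serping1*, the C1 esterase inhibitor of the complement cascade, rose by 5.98 (adjusted p = 0.00135). *Penk*, which encodes proenkephalin, rose by 5.94 (adjusted p = 6.66e-05). The same 3 genes rose by 5.97, 5.79 and 4.81 in shSCR cells.

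**Figure D2:**
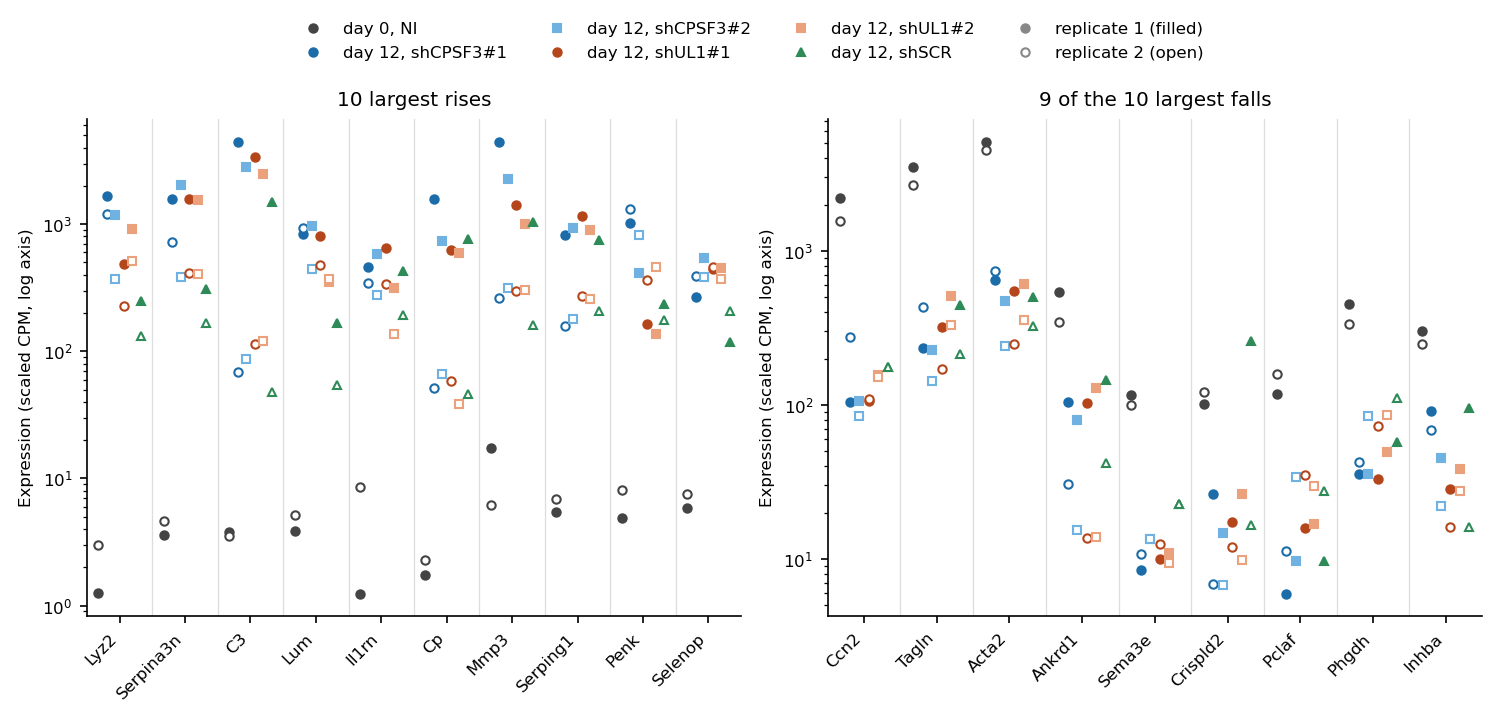
Expression of the 10 genes with the largest rise (left) and 9 of the 10 with the largest fall (right) in knockdown cells against day 0, in scaled CPM on a log axis. Each point is 1 library, colored by group, filled for replicate 1 and open for replicate 2. The rising genes sat between 1 and 18 scaled CPM in NI and the falling genes between 100.2 and 5129.7, and the 8 knockdown libraries lay on 1 side of NI for every gene, as the rule that chose them required.

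Genes of contractile fibers fell in the knockdown cells. In the list "Contractile and actin cytoskeleton" 29 of 37 measured genes fell and 2 rose, with a median change of −1.57 against 0.004 over all genes. In shSCR cells 27 fell and 1 rose (median −1.90). Of all genes 21.7% fell and 26.6% rose with knockdown, and 22.0% and 22.5% in shSCR. Without NI replicate 1 the knockdown counts were 23 and 0, and without replicate 2 they were 24 and 2. All 8 knockdown libraries lay below both NI libraries for 30 of the 37, where 25.0% of all genes did so.

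*Acta2*, smooth muscle actin, was 5129.7 and 4558 in NI, 240.02, 511 and 744 in knockdown cells and 505 and 327 in shSCR. It fell by 3.43 ± 0.37 on the log2 scale (adjusted p = 2.11e-04), and its difference from shSCR was 0.14 ± 0.37 (adjusted p = 0.796). *Tagln*, the actin-bundling protein transgelin, fell from 3491 and 2676 to 142, 278 and 513 (−3.48 ± 0.39, adjusted p = 2.52e-04). *Ccn2*, the matricellular connective tissue growth factor, dropped from 2221 and 1556 to 84.9, 107 and 274 (−3.85 ± 0.30, adjusted p = 5.53e-05). None of the knockdown libraries reached the NI level of any of these 3 genes.

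*Flna*, the actin crosslinker filamin A, was 4221 and 4313 in NI, 920.1, 1339.6 and 1684 in knockdown cells and 970.4 and 684 in shSCR (−1.73 ± 0.21 against NI, adjusted p = 3.58e-04). *Cald1*, caldesmon, had 2827 and 2722 in NI, 728 to 1668 with knockdown and 864 and 547 in shSCR (−1.42 ± 0.23 against NI, adjusted p = 0.0015). For both, knockdown values lay mostly above shSCR, with adjusted p = 0.0532 and 0.0939 against shSCR and 0.00804 and 0.00878 with the replicate block. Against shSCR 2 list genes were higher and 0 lower (14.1% and 7.98% of all genes), or 12 and 1 with the block (25.1% and 21.3%), and 17 were higher in replicates 1 than in replicates 2. *Ankrd1*, a cardiac and stress-inducible ankyrin protein, had 544 and 345 in NI and 13.6 to 129 in knockdown cells (−3.31, adjusted p = 0.0339), and the call was lost without NI replicate 1 or 2, or shCPSF3#1 replicate 2 (adjusted p from 0.0567 to 0.198).

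In these bulk samples a lower level can come from fewer cells of a type or from less RNA per cell, and the 2 cannot be told apart. The list "TGF-beta and BMP signalling" had 11 falls and 5 rises among 28 genes (median −0.05, or 0.02 with libraries rescaled to the same sum), where 21.7% of all genes fell and 26.6% rose, and shSCR cells had 14 falls and 4 rises (median −0.71). Against shSCR 7 genes were higher and 1 lower (14.1% and 7.98% of all genes), or 14 and 2 with the replicate block (25.1% and 21.3%), and without shSCR replicate 2 there were 0 and 1. Replicates 1 exceeded replicates 2 for 17 of the genes. Without NI replicate 1 the falls were 6 and without replicate 2 they were 7. *Inhba*, the subunit of activin A, decreased from 303 and 249.7 to 16.0, 33.5 and 91.4 (−2.88 ± 0.57, adjusted p = 0.00419). Moving the other way, *Tgfbi*, a secreted TGF-beta-induced matrix protein, rose from 8.18 and 20.7 to 164, 337 and 636 (4.45 ± 0.34, adjusted p = 5.17e-05), and the co-receptor *Tgfbr3* rose by 3.24 ± 0.49 (adjusted p = 0.0012). *Ltbp2*, a latent TGF-beta binding protein, did not pass the test (0.20 ± 0.51, adjusted p = 0.774).

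Other leading falls were of a guidance cue, an amino acid enzyme and replication factors. *Sema3e*, a secreted semaphorin, was 115 and 100.2 in NI, 8.48, 10.9 and 13.4 in knockdown cells and 22.7 and 22.7 in shSCR. All 8 libraries lay below NI by the rule that chose it (−3.18 ± 0.12, adjusted p = 3.31e-06). They also lay below both shSCR libraries (−0.98 ± 0.12, adjusted p = 0.00284). *Phgdh*, the first enzyme of serine synthesis, fell from 453 and 335 to 32.9, 46.1 and 86.0 (−2.90 ± 0.43, adjusted p = 9.91e-04). *Crispld2*, a secreted matrix protein, was 102 and 121 in NI and 6.79 to 26.5 in knockdown cells (−2.96, adjusted p = 0.0287), while shSCR had 259 and 16.5. That call was lost without NI replicate 1 (adjusted p = 0.132) or NI replicate 2 (adjusted p = 0.151).

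Genes of DNA replication and cell division were low in the knockdown cells. Of 52 measured members of the list "DNA replication and mitosis", 29 fell and 0 rose from day 0 (median −1.37), where 21.7% of all genes fell and 26.6% rose. With the replicate block 48 fell and 0 rose, where 2856 and 3151 of all 9435 genes did. All 8 libraries lay below both NI libraries for 35, against 25.0% of all genes. In shSCR cells 5 fell and 0 rose (median −0.59), where 22.0% and 22.5% of all genes did. Summed over the list, the level was 7907 and 9195 scaled CPM in NI, 1307 to 6420.0 in knockdown cells and 4166 and 7652 in shSCR. Every knockdown library was below both NI libraries, and the shSCR libraries straddled the upper end of the knockdown range.

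The size of the DNA replication and mitosis change went with the replicate number. Between replicates 1 and 2 at day 12, 50 of the 52 genes were lower in replicates 1 and 0 higher. With replicates 1 alone at day 12 and the 4 shRNAs as 1 group the falls from day 0 were 51, and with replicates 2 alone, fitted likewise, they were 19. Without NI replicate 1 they were 9 and without NI replicate 2 they were 8, with medians of −1.50 and −1.24. Compared with shSCR, 1 gene was lower and 0 higher (7.98% and 14.1% of all genes), or 42 and 0 with the replicate block (21.3% and 25.1%), with a median of −0.85 in either fit.

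*Mki67*, which encodes the proliferation antigen Ki-67, was 328 and 377 in NI, 25.6, 77.0 and 154 in knockdown cells and 111 and 205 in shSCR. Its fall from day 0 was −2.15 ± 0.42 (adjusted p = 0.00378), and against shSCR it had an adjusted p of 0.135, or 0.00396 with the replicate block. *Foxm1*, a transcription factor of mitotic genes, fell from 138 and 151 to 14.5, 27.1 and 47.8 (−2.26 ± 0.31, adjusted p = 7.42e-04). *Prc1*, a bundler of midzone microtubules, fell from 152 and 184 to 11.9, 28.9 and 61.5 (−2.33 ± 0.43, adjusted p = 0.00307). The block turned the comparison with shSCR into a call for *Foxm1* (adjusted p = 0.0113) and *Prc1* (adjusted p = 0.00221).

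Ribonucleotide reductase, which makes the DNA precursors, fell in both of its subunits. *Rrm1* went from 550.3 and 562 to 133, 189.8 and 238 (−1.58 ± 0.12, adjusted p = 5.46e-05), and shSCR had 161 and 207. *Rrm2* went from 501 and 619 to 59.0, 114 and 233 (−2.18 ± 0.51, adjusted p = 0.00892), with the call lost without NI replicate 1 (adjusted p = 0.0569) or NI replicate 2 (adjusted p = 0.0794). *Pclaf*, a clamp-associated replication factor, fell by 2.94 ± 0.55 (adjusted p = 0.00317) with a change of −2.98 in shSCR. *Top2a*, the DNA topoisomerase of dividing cells, did not pass the test at 592 and 683 in NI and 69.5, 213 and 552 in knockdown cells (−1.40 ± 0.56, adjusted p = 0.0689, or 0.001 with the replicate block).

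**Figure D3:**
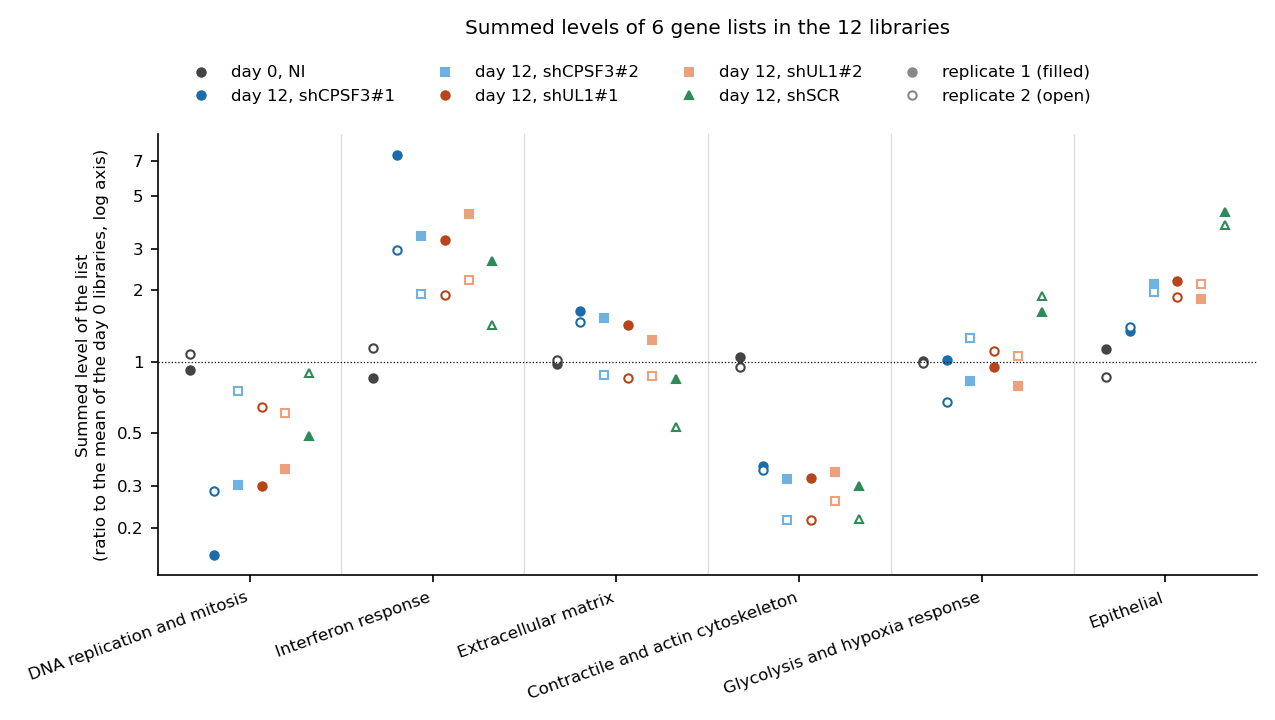
Summed scaled CPM of 6 gene lists in each of the 12 libraries, as a ratio to the mean of the NI libraries on a log axis. Points are libraries, colored by group, filled for replicate 1 and open for replicate 2. All 8 knockdown libraries sat below NI for DNA replication and mitosis and for contractile genes, and above it for the interferon response, where replicate 1 of each shRNA was above its replicate 2.

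In the list "Cell-cycle brakes, p53 targets and senescence" 19 of 36 genes rose, 5 fell and 12 did not pass the test (median 1.27), where 26.6% of all genes rose and 21.7% fell, and 16 rose and 4 fell in shSCR (median 0.58). Without either NI library 13 rose and 3 fell. *Cdkn2a*, the locus of the cell-cycle inhibitor p16 and of ARF, was 9.04 and 11.2 in NI, 89.3, 139.9 and 194 in knockdown cells and 108 and 100.3 in shSCR (3.60 ± 0.11 against NI, adjusted p = 2.05e-06). *Trp53inp1*, a p53 target, rose from 53.3 and 54.9 to 332, 457 and 606 (3.01 ± 0.11, adjusted p = 3.31e-06). Both shSCR libraries lay inside the knockdown range for these 2 genes.

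*Igfbp3*, a binding protein of insulin-like growth factors, rose from 38.7 and 50.7 to 849, 1164 and 2102 (4.80 ± 0.33, adjusted p = 2.99e-05). It was also above shSCR, at 269 and 600.2, in all 8 libraries (1.64 ± 0.33, adjusted p = 0.012), though not called without shSCR replicate 1 (adjusted p = 0.0751). *Cxcl5*, a neutrophil chemokine that is on the list as a secreted factor of senescent cells, spread from 123 to 7353 over the knockdown libraries, with 102 and 193 in NI (2.55 ± 1.97, adjusted p = 0.314). Compared with shSCR 6 genes of the list were higher and 1 lower, a share of higher genes near the 14.1% of all genes, or 12 and 4 with the replicate block (25.1% and 21.3% of all genes), and 2 or 3 were higher without shSCR replicate 1 or 2. Replicates 1 were above replicates 2 for 13 of the genes and below for 5.

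Interferon-induced genes rose in the knockdown cells. Of 33 in the list "Interferon response", 23 rose and 0 fell (median 1.89), with 7 rises and 1 fall in shSCR (median 1.02). Of all genes 26.6% rose and 21.7% fell with knockdown, and 22.5% and 22.0% in shSCR, so the shSCR rises were near the background. The summed level was 920.1 and 1234 in NI, 2053 to 8060.0 in knockdown cells and 2873 and 1546 in shSCR. Replicates 1 were above replicates 2 at day 12 for 30 of the genes and below for 0, and the replicates 1 or 2 alone, with the 4 shRNAs as 1 group, gave 28 or 22 rises. The count was 4 without NI replicate 1 and 14 without NI replicate 2. Against shSCR 5 genes were higher and 0 lower, a share of higher genes near the 14.1% of all genes, or 12 and 0 with the replicate block (25.1% and 21.3% of all genes), and 3 and 0 were higher without shSCR replicate 1 or 2.

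*Tap2*, the peptide transporter for MHC class I, was 2.10 and 3.59 in NI and 10.5, 19.6 and 33.6 in knockdown cells (2.48 ± 0.30, adjusted p = 3.95e-04). *Ifitm3*, an antiviral membrane protein, rose from 131 and 196 to 448, 728 and 1508 (2.18 ± 0.53, adjusted p = 0.0106), except without NI replicate 1 (adjusted p = 0.109). *Oasl2*, an antiviral oligoadenylate synthetase-like protein, rose from 3.51 and 10.1 to 21.1, 35.6 and 175 (2.66 ± 0.72, adjusted p = 0.0163), except without NI replicate 1 (adjusted p = 0.17). *Parp14*, a poly-ADP-ribose polymerase, had 2.63 ± 0.70 (adjusted p = 0.016) and lost the call without NI replicate 1 (adjusted p = 0.142) or NI replicate 2 (adjusted p = 0.061). *Gbp3*, a guanylate-binding protein, had 2.87 ± 0.94 (adjusted p = 0.0352) and lost it without NI replicate 1 or 2, shCPSF3#2 replicate 1, shUL1#1 replicate 1, or shUL1#2 replicate 1 (adjusted p from 0.0567 to 0.235). *B2m*, the light chain of MHC class I, spread over 317 to 1630.4 against 278 and 293 in NI and was not called (adjusted p = 0.073, or 0.00271 with the replicate block).

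The macrophage genes in the table were higher over the same libraries. Genes as low in NI as these are listed through their day 12 values, so a rise was largely fixed in advance. Of 14 genes on the macrophage list 3 were listed in the table (*Lyz2*, *Cd68* and *Csf1r*), and their sum was 10.6 and 9.57 scaled CPM in NI, 300.4 and 171 in shSCR and 259 to 1814 in knockdown cells. *Cd68*, a lysosomal protein of macrophages, rose from 7.48 and 4.35 to 21.6, 40.8 and 80.9 (2.66 ± 0.22, adjusted p = 6.71e-05). *Csf1r*, the receptor of macrophage colony-stimulating factor, rose from 1.86 and 2.23 to 11.9, 31.9 and 83.8 (3.50 ± 0.37, adjusted p = 1.93e-04). Of 4 defining macrophage markers only *Csf1r* was listed. The part that such cells had in the complement, lysozyme and interferon values was not tested.

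Of the matrix genes measured, 34 were higher in knockdown cells than in shSCR. In the list "Extracellular matrix", 27 of 70 genes rose and 6 fell from day 0 (median 0.37), or 32 and 10 with the replicate block, where 26.6% of all genes rose and 21.7% fell without the block. The shSCR cells had 13 rises and 23 falls (median −0.54). Compared directly with shSCR, 34 genes were higher and 1 lower in knockdown cells (median 1.07), where 14.1% and 7.98% of all genes were, or 47 and 2 with the replicate block (25.1% and 21.3%). Replicates 1 were above replicates 2 for 30 of the genes and below for 7. The direct counts were 20 and 0 without shSCR replicate 1 and 12 and 0 without shSCR replicate 2. Against day 0 the rises were 18 without NI replicate 1, and the falls 2 and 1 without NI replicate 1 or 2. Summed over the list, the level was 61580.0 and 64410.0 in NI, 53940.0 to 103000.0 in knockdown cells and 53180.0 and 33370.0 in shSCR.

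*Dcn*, the collagen-binding proteoglycan decorin, went from 42.2 and 37.8 to 401, 1269.5 and 5018 (4.97 ± 1.15, adjusted p = 0.00827), but not without NI replicate 1 (adjusted p = 0.064) or NI replicate 2 (adjusted p = 0.0654). *Prelp*, another small leucine-rich proteoglycan, rose from 4.43 and 12.2 to 201, 395 and 577 (5.49 ± 0.49, adjusted p = 9.18e-05), with 530.3 and 346 in shSCR. *Fn1*, fibronectin, was 5205 and 5535 in NI and 6579.5, 10301 and 13637 in knockdown cells (0.88 ± 0.27, adjusted p = 0.0264), a call lost without NI replicate 1 (adjusted p = 0.164) or NI replicate 2 (adjusted p = 0.119). *Thbs1*, thrombospondin, was not called at 4075 to 12750.0 in knockdown cells and 13915 and 11059 in NI (adjusted p = 0.192, or 0.0274 with the replicate block).

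Genes picked for their excess over shSCR, with all 8 libraries above both shSCR libraries, are given next. *Col14a1*, a collagen that binds fibrils, had 5.92 and 6.96 in NI, 1.67 and 5.33 in shSCR and 38.4, 57.2 and 97.6 in knockdown cells. It was above shSCR by 3.83 ± 0.38 (adjusted p = 0.00161) and above NI by 2.97 ± 0.38 (adjusted p = 5.16e-04). *Ccn3*, a matricellular regulator, had 20.6 and 25.4 in NI, 10.6 and 48.1 in shSCR and 120.5, 218 and 369 in knockdown cells (3.17 ± 0.52 against shSCR, adjusted p = 0.00653). All 8 knockdown values of both genes were above both shSCR values by the rule that chose them, and above both NI values as well.

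*Has2*, a hyaluronan synthase, was 97.8 and 108 in NI, 29.4, 57.4 and 113 in knockdown cells and 6.71 and 7.43 in shSCR (2.90 ± 0.51 against shSCR, adjusted p = 0.00827). *Lrrc17*, a leucine-rich repeat protein, was 29.5 and 57.1 in NI, 10.2, 29.7 and 67.4 in knockdown cells and 1.07 and 6.58 in shSCR (2.87 ± 0.71 against shSCR, adjusted p = 0.0244). For both genes the knockdown range overlapped NI while shSCR lay below it, and neither passed the test against NI (adjusted p = 0.228 and 0.554). The calls against shSCR were lost for *Has2* without shSCR replicate 1 (adjusted p = 0.0519) or shSCR replicate 2 (adjusted p = 0.0681) and for *Lrrc17* without shSCR replicate 1 (adjusted p = 0.152) or shSCR replicate 2 (adjusted p = 0.0556). *Ptn*, the growth factor pleiotrophin, was 324, 926 and 1557 in knockdown cells and 31.2 and 263 in shSCR (3.25 ± 0.79, adjusted p = 0.0232), but not without shSCR replicate 1 (adjusted p = 0.139).

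The list "Fibroblast transcription factors and surface markers" had 6 rises and 4 falls among 30 genes (median 0.20), or 11 and 4 with the replicate block, where 26.6% of all genes rose and 21.7% fell without the block. In shSCR it had 5 rises and 11 falls, against 22.5% and 22.0% of all genes. Against shSCR 8 were higher and 0 lower (14.1% and 7.98% of all genes), or 14 and 1 with the replicate block (25.1% and 21.3%). Without shSCR replicate 1 or 2 the 8 became 5 or 2, and 15 genes were higher in replicates 1 than in replicates 2. *Vim*, the intermediate filament vimentin, fell from 4593 and 4625 to 1478, 1686 and 3148 (−1.36 ± 0.25, adjusted p = 0.00303). *Cdh2*, N-cadherin of mesenchymal cells, fell from 212 and 208 to 40.1, 62.2 and 102.60 (−1.68 ± 0.24, adjusted p = 8.41e-04) and to 19.1 and 16.1 in shSCR. Every knockdown library lay between NI and shSCR for *Cdh2*, above the latter by 1.83 ± 0.24 (adjusted p = 0.00308).

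*Ly6a* (Sca-1), *Cd34* and *Mme*, surface proteins of fibroblast subsets and progenitors, all rose. *Ly6a* was 13.0 and 28.5 in NI and 279.9, 376 and 559 in knockdown cells (4.28 ± 0.27, adjusted p = 2.20e-05). *Cd34* went from 29.6 and 30.6 to 189, 321 and 499 (3.34 ± 0.35, adjusted p = 1.83e-04). *Mme*, a surface peptidase, went from 15.3 and 23.8 to 228, 397 and 1172 (4.52 ± 0.47, adjusted p = 1.77e-04). *S100a6*, a calcium-binding protein, fell by 1.12 ± 0.17 (adjusted p = 0.00105).

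The labelled cell type was checked against markers. Of 8 defining fibroblast markers 7 were listed. Of these, 1 rose from day 0, 1 fell and 5 were not called (*Col1a1*, *Col1a2*, *Thy1*, *Pdgfrb* and *Prrx1*). *Col3a1*, a fibrillar collagen chain, rose by 2.69 (adjusted p = 0.000762), *Vim* fell by 1.36 (adjusted p = 0.00303), and *Col1a1*, a chain of type I collagen, was not called against NI (−0.52) but was above shSCR by 1.78 (adjusted p = 0.00385). Feeders are fibroblasts as well and were present at day 12 only, so their RNA and that of the sorted cells cannot be told apart in these levels. Of 6 defining epithelial markers 2 were listed (*Krt8* and *Krt18*), and of 5 defining pluripotency markers 0 were listed. Other lineages had few listed markers, with 0 of 3 for endothelium and 1 of 3 each for neural cells and muscle.

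The lists of endothelial, neural, muscle and trophoblast genes had 1 to 3 listed members each. *Tek*, an endothelial receptor kinase, rose from 1.15 and 1.51 to 18.3 to 143 (4.49, adjusted p = 7.99e-05) and was the only listed endothelial gene. So low in NI, it too was listed through its day 12 values. Of the neural list 3 genes were listed, and all passed the test. *Stmn2*, a stathmin of neurons, rose by 1.72 (adjusted p = 0.0297), but not without NI replicate 1 or 2, or shUL1#2 replicate 2 (adjusted p from 0.0513 to 0.165). *Tubb3*, a neuronal tubulin, fell by 0.74 (adjusted p = 0.0171), but not without NI replicate 1 (adjusted p = 0.0741) or NI replicate 2 (adjusted p = 0.134). *Nes*, nestin, fell by 2.18 (adjusted p = 5.67e-05). *Des*, desmin, fell by 1.80 (adjusted p = 0.0069), but not without NI replicate 1 (adjusted p = 0.0589) or NI replicate 2 (adjusted p = 0.056). *Dab2*, an endocytic adaptor, rose by 0.88 (adjusted p = 0.00563), but not without NI replicate 1 (adjusted p = 0.051) or NI replicate 2 (adjusted p = 0.0521).

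Of 13 measured epithelial genes, 9 were lower than in the scrambled control and 1 was higher (7.98% and 14.1% of all genes), or 12 and 1 with the replicate block (21.3% and 25.1%). Without shSCR replicate 1 or 2, 1 gene was lower. From day 0, in the list "Epithelial (mesenchymal-to-epithelial transition)" 6 of the 13 genes rose and 1 fell (median 0.90), where shSCR cells had 10 rises and 0 falls (median 2.15). Of all genes 26.6% rose and 21.7% fell with knockdown, and 22.5% and 22.0% in shSCR. Only 13 of the 54 list genes were in the table, where a gene low in NI is listed through day 12, so rises were favored. Without NI replicate 1 or 2 the rises were 4 or 3, and 2 genes were higher and 5 lower in replicates 1 than in replicates 2. The summed level was 384 and 290.5 in NI, 457 to 738 in knockdown cells and 1449 and 1269 in shSCR, so the knockdown libraries lay between the control groups without overlap.

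*Dsp*, desmoplakin of desmosomes, was 1.82 and 1.32 in NI, 9.64, 23.3 and 38.4 in knockdown cells and 67.3 and 48.2 in shSCR (3.25 ± 0.37 against NI, adjusted p = 2.77e-04). *Spint2*, an epithelial protease inhibitor, was 4.46 and 2.47, 19.5, 29.0 and 60.9 and 83.7 and 112 in the same order (2.96 ± 0.34 against NI, adjusted p = 3.21e-04). Against shSCR the differences were −1.26 ± 0.37 for *Dsp* (adjusted p = 0.0437) and −1.53 ± 0.34 for *Spint2* (adjusted p = 0.018). The first was lost without NI replicate 1 or 2, shCPSF3#1 replicate 1, shSCR replicate 1 or 2, shUL1#1 replicate 2, or shUL1#2 replicate 1 or 2 (adjusted p from 0.0518 to 0.183). The second was lost without shSCR replicate 1 (adjusted p = 0.0582) or shSCR replicate 2 (adjusted p = 0.162). *Perp*, a desmosomal p53 target, went the other way at 58.6, 85.0 and 139 against 40.8 and 68.1 in shSCR and 12.4 and 9.90 in NI (0.77 ± 0.20 against shSCR, adjusted p = 0.0297), except without shCPSF3#1 replicate 2, shSCR replicate 1, or shUL1#1 replicate 1 (adjusted p from 0.0506 to 0.178).

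Keratins 8 and 18 form the filaments of simple epithelia. *Krt8* was 6.48 and 5.04 in NI, 18.6, 31.1 and 124.89 in knockdown cells and 268 and 146 in shSCR. Its rise from NI (2.58 ± 0.67, adjusted p = 0.0135) was lost without NI replicate 1 (adjusted p = 0.0769) or NI replicate 2 (adjusted p = 0.0992), and its difference from shSCR (−2.30 ± 0.67, adjusted p = 0.042) was lost without NI replicate 1 or 2, shCPSF3#1 replicate 1 or 2, shSCR replicate 1 or 2, shUL1#1 replicate 2, or shUL1#2 replicate 1 or 2 (adjusted p from 0.0506 to 0.18). *Krt18* was 14.0 and 10.9, 13.1, 28.2 and 95.8 and 271 and 152 (−2.58 ± 0.58 against shSCR, adjusted p = 0.0179), with the call lost without shSCR replicate 1 (adjusted p = 0.105) or shSCR replicate 2 (adjusted p = 0.0825). The junctional plakoglobin *Jup* was not called against NI (adjusted p = 0.284) and had a difference from shSCR of −0.54 (adjusted p = 0.039), which was lost without NI replicate 1 or 2, shCPSF3#1 replicate 1, shCPSF3#2 replicate 1, shSCR replicate 1 or 2, shUL1#1 replicate 1, or shUL1#2 replicate 1 or 2 (adjusted p from 0.0506 to 0.297).

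Of the list "Pluripotency and reprogramming markers", 12 of 20 genes rose and 1 fell (median 1.64), or 14 and 4 with the replicate block, where 26.6% of all genes rose and 21.7% fell without the block. In shSCR cells 14 rose and 1 fell (median 2.89), where 22.5% and 22.0% of all genes did. Only 20 of the 49 list genes were in the table, where a gene low in NI is listed through day 12, so rises were favored. Without NI replicate 1 the rises were 7 and without NI replicate 2 also 7. Against shSCR 1 gene was lower and 0 higher (7.98% and 14.1% of all genes), or 10 and 0 with the replicate block (21.3% and 25.1%). Replicates 1 were lower than replicates 2 for 16 of the genes.

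*Dnmt3b*, the de novo DNA methyltransferase of early embryo cells, was 4.45 and 4.31 in NI, 26.7, 93.5 and 430.2 in knockdown cells and 103.04 and 208 in shSCR (4.57 ± 0.84 against NI, adjusted p = 0.00292). *Tet1*, which oxidizes methylated cytosine, was 4.90 and 5.26, 24.6, 73.6 and 243 and 137 and 335 (3.92 ± 0.71, adjusted p = 0.00274). *Trim71*, an RNA-binding ubiquitin ligase of stem cells, was 4.39 and 3.60, 16.8, 47.6 and 127 and 91.0 and 151 (3.48 ± 0.50, adjusted p = 8.61e-04). With the block, *Tet1* and *Trim71* were lower than shSCR (adjusted p = 0.0133 and 0.015), and *Dnmt3b* was not (adjusted p = 0.705).

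*Icam1*, an adhesion molecule, rose from 7.06 and 9.86 to 106, 171 and 409.7 (4.27 ± 0.43, adjusted p = 1.52e-04). *Mybl2*, a transcription factor of dividing stem cells, did not pass the test at 34.8, 108 and 367 against 57.5 and 51.0 in NI (adjusted p = 0.138, or 0.0103 with the replicate block), while shSCR had 343 and 619. The mismatch repair gene *Msh6* was not called either (0.88 ± 0.45, adjusted p = 0.141, or 0.00782 with the replicate block).

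In the list "Glycolysis and hypoxia response" 13 of 33 genes rose and 2 fell (median 0.31), or 15 and 4 with the replicate block, while 21 rose and 0 fell in shSCR (median 1.46). Of all genes 26.6% rose and 21.7% fell with knockdown, and 22.5% and 22.0% in shSCR. With the block 3151 of 9435 genes rose and 2856 fell with knockdown. In the direct comparison 16 genes were lower in knockdown cells and 0 higher (7.98% and 14.1% of all genes), or 26 and 0 with the replicate block (21.3% and 25.1%). Leaving out shSCR replicate 1 gave 4 lower and 1 higher, and leaving out replicate 2 gave 3 and 0. Without NI replicate 1 or 2 the rises were 9 or 8, and 9 genes were higher and 3 lower in replicates 1 than in replicates 2. Summed levels were 10440.0 and 10290.0 in NI, 7025 to 13070.0 in knockdown cells and 16820.0 and 19660.0 in shSCR.

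*Slc2a3*, the glucose transporter GLUT3, was 16.1 and 11.7 in NI, 58.0, 189 and 506 in knockdown cells and 761 and 1228 in shSCR. It rose from day 0 by 3.82 ± 0.52 (adjusted p = 6.70e-04) and differed from shSCR by −2.22 ± 0.52 (adjusted p = 0.0204), except without shSCR replicate 1 (adjusted p = 0.0593) or shSCR replicate 2 (adjusted p = 0.181). *Aldoc*, an aldolase, was 1.19 and 1.0, 5.17, 16.4 and 34.7 and 69.9 and 78.7 (−2.26 ± 0.17 against shSCR, adjusted p = 9.18e-04). *Egln3*, an oxygen-sensing hydroxylase, was 14.9 and 8.94, 5.33, 28.3 and 58.9 and 258 and 117 (−2.76 ± 0.60 against shSCR, adjusted p = 0.0158), a difference not called without shSCR replicate 1 (adjusted p = 0.101) or shSCR replicate 2 (adjusted p = 0.0621). No knockdown library reached the lower shSCR value of any of these 3 genes, as the rule required of those chosen by their deficit against shSCR.

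*Pdk1*, the kinase that holds back pyruvate oxidation, rose from 10.6 and 10.7 to 57.3, 74.3 and 165 (2.96 ± 0.40, adjusted p = 6.92e-04). *Bnip3*, a hypoxia-induced mitochondrial protein, rose from 5.96 and 6.56 to 17.8, 42.9 and 52.8 (2.39 ± 0.35, adjusted p = 9.24e-04). *Gapdh*, a central enzyme of glycolysis, was 2582 and 2514 in NI and 1153, 1498 and 2281 in knockdown cells (−0.68 ± 0.24, adjusted p = 0.0447), a call lost without NI replicate 1 or 2, shCPSF3#1 replicate 1 or 2, shSCR replicate 1 or 2, shUL1#1 replicate 1, or shUL1#2 replicate 1 (adjusted p from 0.0518 to 0.203). *Pkm*, pyruvate kinase, was not called (−0.22 ± 0.21, adjusted p = 0.424). *Fabp3*, a fatty acid carrier outside the list, had the largest deficit against shSCR among the genes named here, at 11.3, 27.4 and 45.8 against 198 and 197 (−2.88 ± 0.36, adjusted p = 0.00263), although it rose from 6.02 and 5.0 in NI.

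The list "Respiratory chain" had 15 falls and 2 rises among 49 genes (median −0.24), where 21.7% of all genes fell, and 9 falls and 1 rise in shSCR, where 22.0% of all genes fell. The falls numbered 2 without NI replicate 1 and 6 without NI replicate 2. All 8 libraries lay below both NI libraries for 25 of the 49, where 25.0% of all genes did so. Against shSCR 1 gene was lower and 0 higher, or 12 and 1 with the replicate block (21.3% and 25.1% of all genes). Replicates 1 were below replicates 2 for 14 of the genes and above for 0. *Cycs*, cytochrome c, fell from 165 and 151 to 54.2, 59.3 and 66.2 (−1.41 ± 0.12, adjusted p = 9.06e-05), with 46.5 and 58.7 in shSCR. *Atp5g3*, a subunit of ATP synthase, fell by 0.57 ± 0.12 (adjusted p = 0.00604), except without NI replicate 1 (adjusted p = 0.0635). *Atp5b* was not called (−0.53 ± 0.21, adjusted p = 0.0707, or 0.00719 with the replicate block).

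In the list "Splicing regulators" 25 of 62 genes fell and 5 rose (median −0.55), or 43 and 6 with the replicate block, where 21.7% of all genes fell and 26.6% rose without the block, and 16 fell and 5 rose in shSCR (median −0.33). The falls were 8 without either NI library. Replicates 1 were below replicates 2 for 33 genes. Against shSCR 6 were higher and 8 lower (14.1% and 7.98% of all genes), or 7 and 18 with the replicate block (25.1% and 21.3%), and without shSCR replicate 1 or 2 the lower ones numbered 1 or 0. *Snrpd1*, a core protein of the spliceosomal snRNPs, fell from 169 and 151 to 48.2, 64.5 and 104 (−1.17 ± 0.30, adjusted p = 0.0133), but not without NI replicate 1 (adjusted p = 0.11) or NI replicate 2 (adjusted p = 0.069). *Snrpa1*, a U2 snRNP protein, fell by 1.18 ± 0.25 (adjusted p = 0.00566), but not without NI replicate 1 (adjusted p = 0.0554).

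The abundant hnRNP gene *Hnrnpa2b1* was 1547 and 1677 in NI and 795, 978 and 1295 in knockdown cells (−0.69 ± 0.18, adjusted p = 0.0151), a call lost without NI replicate 1 (adjusted p = 0.0794) or NI replicate 2 (adjusted p = 0.115). *Rbm47*, an epithelial RNA-binding protein, rose from 1.104 and 1.78 to 9.91, 13.6 and 21.1 (2.65 ± 0.26, adjusted p = 1.30e-04) and reached 24.3 and 33.3 in shSCR. *Srrm2*, a scaffold protein of nuclear speckles, was 567 and 589 in NI, 713, 1009.7 and 1118 with knockdown and 1650.0 and 1224 in shSCR (0.70 ± 0.17 against NI, adjusted p = 0.00949), and lost the call without NI replicate 1 (adjusted p = 0.0856) or NI replicate 2 (adjusted p = 0.064).

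The list "Cleavage and polyadenylation", which includes *Cpsf3* itself, had 5 falls and 2 rises among 25 genes (median −0.17), or 8 and 5 with the replicate block. Without the block 21.7% of all genes fell and 26.6% rose, so the share of falls was near the background. The falls were 2 and 3 without NI replicate 1 or 2. Against shSCR 2 were lower and 1 higher, or 11 and 1 with the replicate block, in which 21.3% of all genes were lower, and 13 were lower in replicates 1 than in replicates 2. *Cpsf2*, the paralog with which CPSF3 pairs, fell from 143 and 149 to 76.1, 83.3 and 100.2 (−0.77 ± 0.14, adjusted p = 0.00263), with 65.8 and 85.3 in shSCR. *Ppp1ca*, a phosphatase catalytic subunit, fell by 0.83 ± 0.15 (adjusted p = 0.00237). *Cpeb1*, a regulator of poly(A) tails, rose from 14.7 and 7.12 to 13.2, 23.1 and 44.8 (1.10 ± 0.22, adjusted p = 0.00471). *Papola*, the poly(A) polymerase, and *Pabpc1*, the poly(A)-binding protein, were not called (adjusted p = 0.152 and 0.249).

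The number of genes that differed among the 4 shRNAs depended on how the replicate number was treated. A moderated F test over the 4 groups called 4 of 9435 genes (1173 at an unadjusted p under 0.05). With the replicate block it called 523, with the block over day 12 libraries alone 2515 and with the correlation between same-numbered libraries 2464. It called 0 without NI replicate 1 or 2, shCPSF3#1 replicate 1, or shUL1#1 replicate 1 or 2, and 1 without shCPSF3#1 replicate 2. *Podxl*, a sialomucin of epithelial and stem cell surfaces, was 5.29 and 4.70 in NI, 37.2 and 30.6 with shCPSF3#1 and 95.8 to 120.2 with the other 3 shRNAs (adjusted p = 0.0114). *Sdc3*, a syndecan, was 223 and 190.35 in NI, 179 and 202 with shCPSF3#1 and 42.6 to 89.0 with the others (adjusted p = 0.0146). For both genes shCPSF3#1 lay closest to NI. These genes were named after their values were seen.

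The Empty cells of the overexpression dataset share no library with the knockdown dataset. There 2164 of 9472 genes rose (22.8%) and 2237 fell (23.6%) between day 0 and day 12. Over the 9041 genes in both tables, 961 rose in both datasets, which was 43.7% of the knockdown rises and 47.3% of the Empty rises, where 22.5% of the shared genes rose in Empty. In both, 1059 fell, or 52.0% of the knockdown falls and 49.1% of the Empty falls, against 23.8%. Another 39 genes rose with knockdown and fell in Empty, and 7 did the opposite. The Empty count rested on its 2 day 12 libraries, with 1473 genes called without Empty replicate 1 and 2222 without Empty replicate 2.

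*Acta2* fell by 4.10 in Empty (adjusted p = 9.74e-04) and *Slc2a3* rose by 5.997 (adjusted p = 6.77e-04). *Has2* fell by 3.87 (adjusted p = 0.00122), where it was not called in knockdown cells against NI. Of the DNA replication and mitosis list 14 of 52 genes rose and 8 fell in Empty (median 0.08), where 22.8% of all genes rose and 23.6% fell. The matrix list had 4 rises and 33 falls among 61 genes there (median −1.02).

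Alternative splicing was compared over 376912 events with coverage in NI and all 8 knockdown libraries. An event was called by the PSI rule when the mean moved by at least 10 PSI and every knockdown library lay at least 5 PSI beyond both NI libraries. This rule found 1033 events (0.274%) spread over 768 genes, of which 649 went up and 384 down in PSI. They comprised 290 higher and 151 lower cassette exons, 250 and 125 retained introns, 45 higher and 43 lower 3′ splice sites, and 64 higher and 65 lower 5′ splice sites. Alternative splice sites of 1 gene are complementary, so their PSI values are not independent.

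With the same limits each shRNA alone gave 2521 to 2795 events, and shSCR gave 4663 against the same NI libraries. A group of 2 libraries meets the gap more easily than 8, so only the single-group counts are comparable. With all 4 shRNAs each meeting the rule, 489 events were higher and 302 lower. Leaving out 1 knockdown library gave 1094 to 1193 events in all, and the count was 2268 without NI replicate 1 and 2476 without NI replicate 2.

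**Figure D4:**
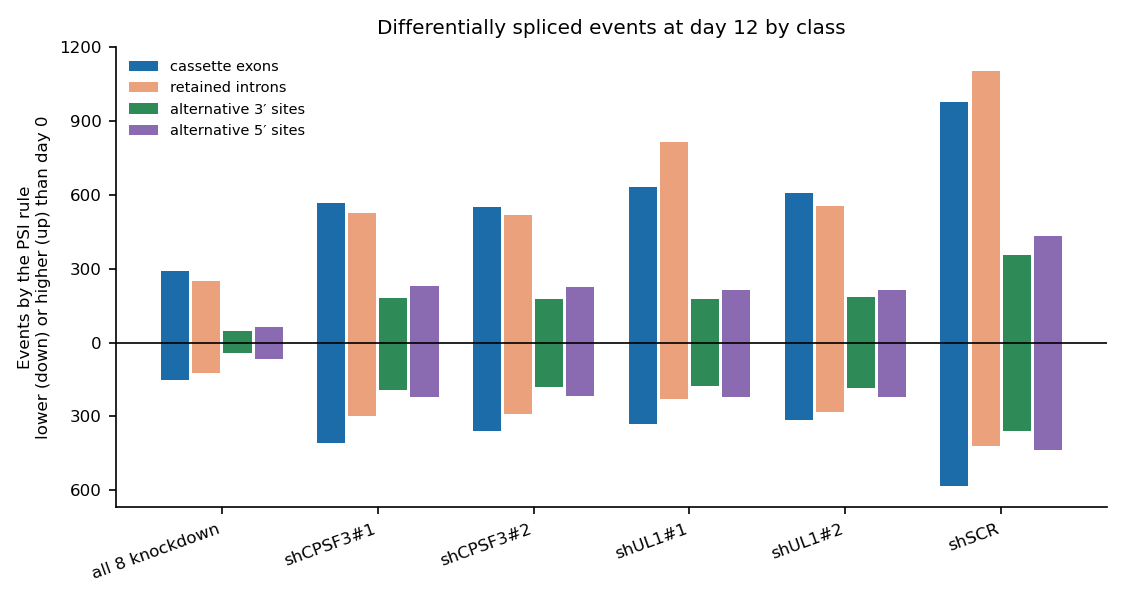
Number of events called by the PSI rule at day 12 against day 0, by class of event. Bars above 0 count events with higher PSI and bars below 0 events with lower PSI, for all 8 knockdown libraries together, each shRNA and shSCR (2 libraries each). Cassette exons and retained introns made up most calls, and shSCR had more than any shRNA.

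A test on inclusion and exclusion reads, which weighs the counting error, called 5410 of 153540 events (3.52%) in knockdown cells against NI, 3939 higher and 1471 lower. Of 67085 introns tested 2410 were higher and 369 lower (4.14% called), and of 38574 exons 1114 were higher and 681 lower (4.65% called). Requiring a change of at least 10 PSI as well left 287 higher and 102 lower introns and 273 and 171 exons. The count was 1655 without NI replicate 1, 1253 without NI replicate 2 and 1952 without the weights. Of the events of the PSI rule, 490 of 636 tested with higher and 276 of 378 with lower PSI were called in the same direction.

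The exons of *Plod2*, *Pcnt* and *Afdn* were followed by PCR in the study. Their sequences are shown since inclusion of these short coding exons is what the values measure. The exon is in capitals and 15 bases of the neighboring exons of the spliced transcript are in lower case. The *Plod2* exon spans chr9:92601985-92602047 (mm10, + strand, exon 14 of 20, 63 bases). The *Pcnt* exon spans chr10:76403624-76403644 (− strand, exon 21 of 42, 21 bases) and the *Afdn* exon chr17:13848355-13848375 (+ strand, exon 16 of 34, 21 bases).
Plod2: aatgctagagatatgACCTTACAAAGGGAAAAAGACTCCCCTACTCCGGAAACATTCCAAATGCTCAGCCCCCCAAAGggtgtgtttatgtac
Pcnt: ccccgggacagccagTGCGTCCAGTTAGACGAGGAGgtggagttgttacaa
Afdn: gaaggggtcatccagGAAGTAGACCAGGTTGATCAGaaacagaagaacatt

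*Plod2* encodes a lysyl hydroxylase that prepares collagen for crosslinking. Its exon had PSI of 93.03 and 93.7 in NI, 65.5, 80.5 and 93.7 in knockdown cells and 60.2 and 30.03 in shSCR. The mean change was not called against NI (∆PSI −12.4, adjusted p = 0.0989) except with the replicate block (adjusted p = 0.00866), and it differed from shSCR (adjusted p = 0.019, or 9.86e-04 with the replicate block), except without shSCR replicate 2 (adjusted p = 0.142). Every knockdown library was above both shSCR libraries, and shCPSF3#1 with 93.7 and 90.9 was closest to NI. In Empty cells the exon had 42.1 and 49.9.

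*Pcnt* encodes pericentrin, a scaffold of the centrosome. Its exon was at 100 and 100 in NI, 27.4, 63.0 and 82.9 in knockdown cells and 31.9 and 20.4 in shSCR. It was called by both tests against NI (∆PSI −45.5, adjusted p = 0.00138), and against shSCR only with the replicate block (adjusted p = 0.203 without and 0.0181 with it). Within each shRNA, replicate 2 was below replicate 1. Coverage was 41 to 137 reads a library.

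*Afdn* encodes afadin, an adaptor that ties nectins to actin. Its exon had 79.7 and 84.9 in NI, 18.6, 54.0 and 77.5 in knockdown cells and 29.9 and 14.8 in shSCR. The change from NI (∆PSI −34.8) was not called (adjusted p = 0.113) except with the replicate block (adjusted p = 0.009). Nor was the change from shSCR called (adjusted p = 0.294, or 0.0531 with the block). The knockdown values ran from just under NI, at 77.5 with shCPSF3#1, to within the shSCR range.

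Of the 8 leading exon rises, the best covered was in *Fbln2*, a matrix glycoprotein. Its exon at chr6:91259630-91259770 (+ strand, exon 9 of 18) spans 141 bases, a multiple of 3, shown with the exon in capitals because its shift was seen in every day 12 library.
Fbln2: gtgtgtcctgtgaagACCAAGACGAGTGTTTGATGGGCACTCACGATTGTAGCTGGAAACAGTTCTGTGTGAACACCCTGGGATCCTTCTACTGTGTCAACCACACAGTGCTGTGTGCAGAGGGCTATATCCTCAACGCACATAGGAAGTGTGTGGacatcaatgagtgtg

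PSI of the *Fbln2* exon was 6.12 and 7.91 in NI, 46.7, 56.9 and 64.7 in knockdown cells and 43.7 and 52.4 in shSCR, with 1993 to 11040 reads a library (∆PSI 49.2, adjusted p = 9.82e-07). *Ppip5k1*, an inositol pyrophosphate kinase, held an exon that went from 15.8 and 22.7 to 51.0, 61.0 and 68.1 (∆PSI 41.7, adjusted p = 5.61e-04). Neither differed from shSCR (adjusted p = 0.305 and 0.162).

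The calls of the other rises among the leading 8 exons were lost when single libraries were left out. NI coverage was low for some, with 48 and 21 reads for *Upp1* and 25 and 24 for *Porcn*. *Upp1*, uridine phosphorylase, had an exon outside the coding sequence at 8.13 and 19.2 in NI and 73.1, 84.5 and 88.0 in knockdown cells (∆PSI 69.3, adjusted p = 0.00522), lost without NI replicate 1 (adjusted p = 0.21). *Nasp*, a histone chaperone, held a 975-base exon at 18.2 and 19.0 in NI and 43.8, 60.3 and 79.2 in knockdown cells (∆PSI 44.5, adjusted p = 0.0107), lost without NI replicate 1 (adjusted p = 0.111) or NI replicate 2 (adjusted p = 0.124). *Rragb*, a GTPase that signals amino acids to mTORC1, had 5.56 and 2.29 and 34.6, 41.5 and 74.5 (∆PSI 45.6, adjusted p = 0.0306), lost without NI replicate 1 or 2, shCPSF3#1 replicate 1 or 2, or shUL1#1 replicate 2 (adjusted p from 0.0501 to 0.321). These 3 exons also had high PSI in shSCR, at 74.3 and 85.0, 74.7 and 80.7 and 65.8 and 83.9.

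*Porcn*, which lipidates Wnt proteins, had ∆PSI 45.1 (adjusted p = 0.0102, lost without NI replicate 1 (adjusted p = 0.0854) or NI replicate 2 (adjusted p = 0.165)). *Trim46*, a microtubule-associated protein, had ∆PSI 38.3 (adjusted p = 0.0132, lost without NI replicate 1 (adjusted p = 0.111) or NI replicate 2 (adjusted p = 0.167)). *Pla2g6*, a calcium-independent phospholipase, had ∆PSI 40.1 (adjusted p = 0.0437) and lost the call without NI replicate 1 or 2, shCPSF3#1 replicate 1 or 2, shCPSF3#2 replicate 1 or 2, shSCR replicate 1 or 2, or shUL1#1 replicate 1 or 2 (adjusted p from 0.0505 to 0.375).

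Of the 8 leading exons that fell, the best covered was the extra domain A exon of *Fn1*, which distinguishes cellular fibronectin and is typical of activated fibroblasts. It lies at chr1:71603660-71603929 (− strand, exon 33 of 46, 270 bases) and is printed in capitals because knockdown cells went beyond shSCR here.
Fn1: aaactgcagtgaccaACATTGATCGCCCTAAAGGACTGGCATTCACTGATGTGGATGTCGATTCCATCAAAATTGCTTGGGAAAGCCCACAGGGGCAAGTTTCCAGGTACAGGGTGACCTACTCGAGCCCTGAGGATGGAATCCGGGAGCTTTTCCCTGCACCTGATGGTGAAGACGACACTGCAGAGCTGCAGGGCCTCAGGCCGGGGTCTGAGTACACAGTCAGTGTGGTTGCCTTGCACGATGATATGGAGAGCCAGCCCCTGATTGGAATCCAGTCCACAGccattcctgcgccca

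PSI of the *Fn1* exon was 64.9 and 64.1 in NI, 21.6, 25.8 and 38.4 in knockdown cells and 47.8 and 37.5 in shSCR, with 19952 to 45350 reads a library (∆PSI −37.1, adjusted p = 4.65e-05). The knockdown mean was below shSCR (adjusted p = 0.0129, or 0.00816 with the block), although 1 knockdown library, shUL1#1 replicate 1 at 38.4, was above shSCR replicate 2 and the call was lost without shSCR replicate 1 (adjusted p = 0.228). In Empty cells it was at 32.4 and 26.9, after 65.9 and 47.6 in their NI libraries.

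*Mtf2*, a subunit of Polycomb complexes, had a noncoding or UTR exon that fell from 87.6 and 75.2 to 15.6, 18.4 and 40.9 (∆PSI −60.5, adjusted p = 5.40e-04), with 33 and 34 reads in NI. *Rbmx*, an hnRNP G protein, had an exon that fell from 77.2 and 82.0 to 13.3, 18.3 and 28.3 (∆PSI −60.4, adjusted p = 9.82e-07). The *Rbmx* exon went lower still in shSCR, to 7.82 and 11.7 (adjusted p = 0.0338 for the difference), a call lost without shCPSF3#1 replicate 2, shCPSF3#2 replicate 2, shSCR replicate 1 or 2, shUL1#1 replicate 2, or shUL1#2 replicate 1 (adjusted p from 0.0514 to 0.369). *Gemin7*, of the SMN complex that assembles snRNPs, fell from 90.9 and 94.9 to 47.7, 56.8 and 74.7 (∆PSI −33.6, adjusted p = 2.25e-04).

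*Sytl2*, a Rab27 effector, had a 120-base exon at 54.9 and 79.1 in NI, 16.0, 33.7 and 45.8 in knockdown cells and 60.8 and 45.4 in shSCR (∆PSI −34.7, adjusted p = 0.00792). The call was lost without NI replicate 2 (adjusted p = 0.224), and the difference from shSCR had an adjusted p of 0.172. *Cit*, citron kinase of cytokinesis, fell from 71.7 and 56.8 to 16.4, 33.4 and 40.5 (∆PSI −33.9, adjusted p = 0.0131), except without NI replicate 1 (adjusted p = 0.163). *Pym1*, a factor that takes apart exon junction complexes, fell from 50.6 and 47.5 to 7.28, 16.2 and 27.8 (∆PSI −33.7, adjusted p = 0.00624), except without NI replicate 1 (adjusted p = 0.0806) or NI replicate 2 (adjusted p = 0.0858).

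**Figure D5:**
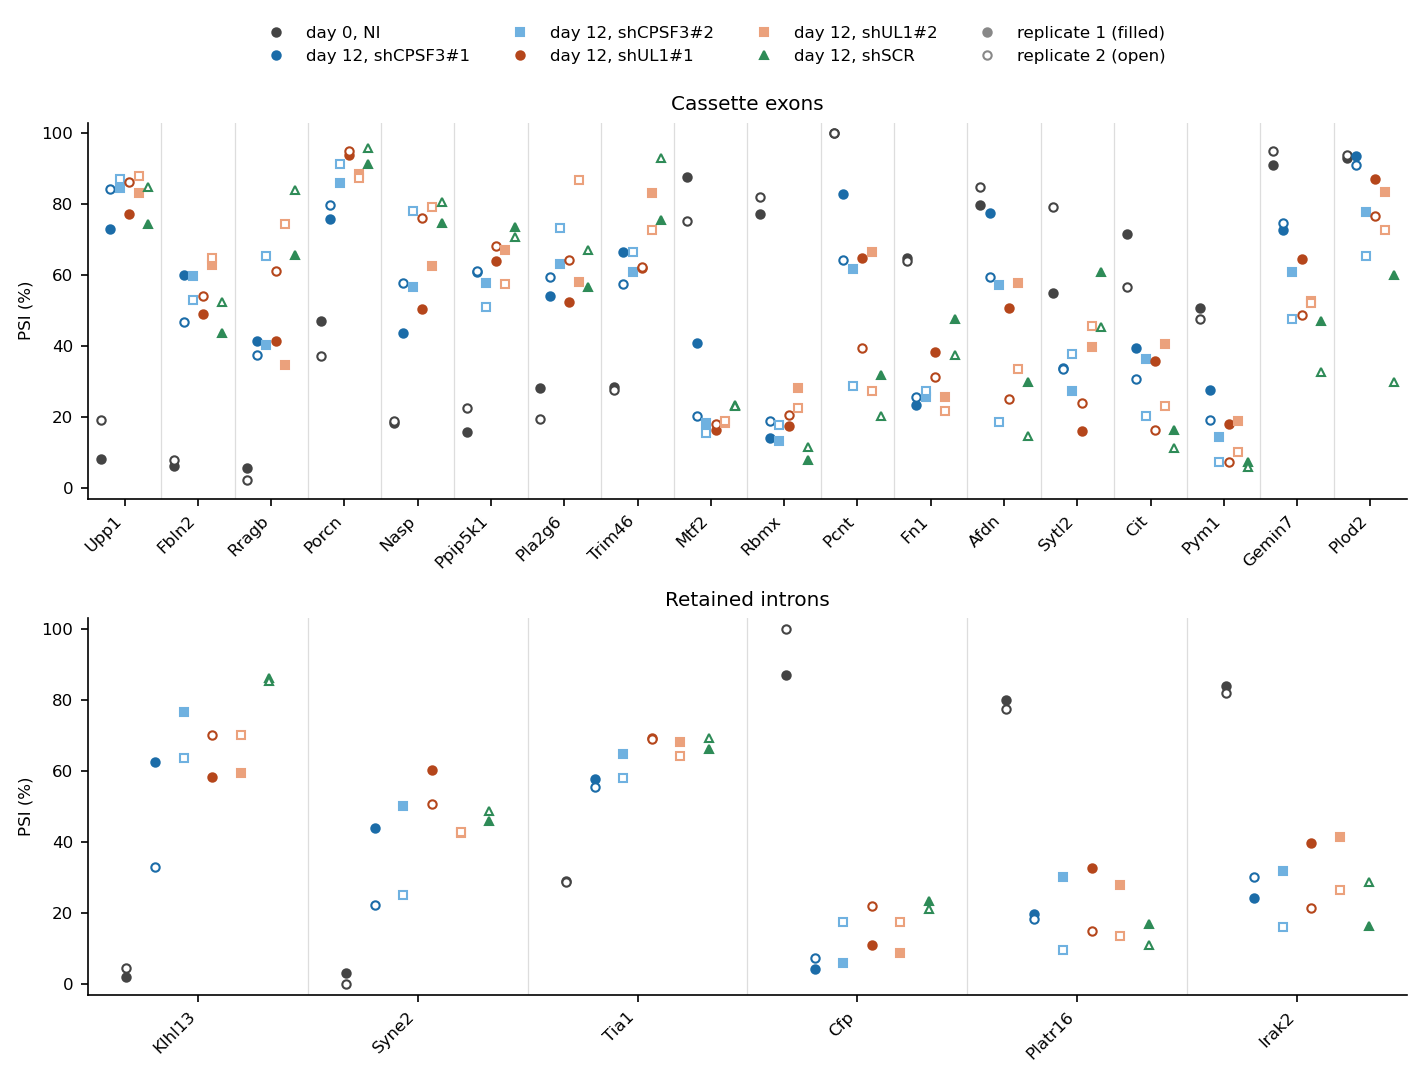
PSI in percent of the named cassette exons (top) and retained introns (bottom), each point 1 library, colored by group, filled for replicate 1 and open for replicate 2. The 8 knockdown libraries lay on 1 side of both NI libraries for every exon but that of *Plod2*, and all 8 *Klhl13* values lay between NI and shSCR.

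Retained introns moved in both directions. NI reads were few for some of them, with 27 and 48 for *Klhl13*, 18 and 21 for *Syne2* and 29 and 22 for *Cfp*. An intron of *Klhl13*, an adaptor of a ubiquitin ligase, was at 1.89 and 4.35 in NI, 32.9, 63.1 and 76.7 in knockdown cells and 86.2 and 85.3 in shSCR. It rose from NI (∆PSI 58.6, adjusted p = 6.99e-04) and was below shSCR (adjusted p = 0.00649), except without shSCR replicate 1 (adjusted p = 0.085) or shSCR replicate 2 (adjusted p = 0.061). An intron of *Tia1*, itself a splicing regulator, rose from 29.1 and 28.7 to 55.6, 64.5 and 69.2 (∆PSI 34.4, adjusted p = 7.31e-05), with 66.2 and 69.1 in shSCR. *Syne2*, which links the nucleus to actin, kept an intron at 22.1, 43.3 and 60.1 against 3.12 and 0 in NI (adjusted p = 0.00264, lost without NI replicate 2 (adjusted p = 0.0951)).

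In the other direction, an intron of *Irak2*, an interleukin-1 receptor kinase, fell from 84.0 and 81.8 to 15.9, 28.2 and 41.5 (∆PSI −54.1, adjusted p = 6.56e-04). An intron of *Cfp*, the complement factor properdin, fell from 87.1 and 100 to 4.09, 9.79 and 21.9 (∆PSI −81.8, adjusted p = 0.0035), except without NI replicate 2 (adjusted p = 0.0829). The noncoding RNA *Platr16* had 79.9 and 77.4 in NI and 9.55 to 32.6 in knockdown cells (adjusted p = 0.011, lost without NI replicate 1 (adjusted p = 0.105) or NI replicate 2 (adjusted p = 0.149)).

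Of alternative 5′ splice sites, 1 in *Rpl29*, a ribosomal protein with many processed copies in the genome, went from 0.51 and 0.52 PSI in NI to 18.9, 37.6 and 70.0 in knockdown cells (adjusted p = 1.78e-08). In the overexpression dataset the same site was at 85.4 and 88.6 PSI in NI and at 94.1 and 91.5 in Empty. Reads from those copies could enter its counts, so its value is uncertain. A site of *Hspa12a*, a heat shock protein family member, was at 39.8 and 38.5 in NI and 0 in all 8 knockdown libraries (adjusted p = 0.00639, lost without NI replicate 1 (adjusted p = 0.0787) or NI replicate 2 (adjusted p = 0.0951)), but 1 shSCR library, 1 Empty library and 1 NI library of the overexpression dataset were at 0 too. A 3′ site of *Gpc2*, a glypican, rose from 26.5 and 32.7 to 65.0, 73.1 and 79.6 (∆PSI 44.0, adjusted p = 5.21e-04).

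The read test of knockdown against shSCR at day 12 called 2808 events (1.83%), 1141 higher and 1667 lower in knockdown cells, and cassette exons numbered 473 and 912 of these. The count was 751 without shSCR replicate 1 and 814 without shSCR replicate 2, and a fit without the weights called 14. Of the events that rose from NI by the PSI rule 27 (4.25%) were higher and 68 (10.7%) lower than in shSCR, and of those that fell 17 were higher and 22 lower. The median ∆PSI of the rising events was 15.64 in knockdown cells, 16.68 in shSCR and 8.18 in Empty. That of the falling events was −16.71, −17.01 and −10.27. The knockdown and shSCR medians share the NI libraries, and the events were picked on the knockdown values.

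Part of the events was shared with Empty cells. Of 371510 events covered in both datasets, 231 were higher in both, which was 36.9% of the knockdown and 19.7% of the Empty events, where 0.315% of all events were higher in Empty. Lower in both were 162, or 43.5% and 14.6%, against 0.299%. Opposite directions were seen in 6 and 2 events.

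The exons of the PSI rule resembled other alternative exons in length. Of 290 higher exons 145 (50%) were a multiple of 3 long, and of 151 lower exons 48.3%, against 39.5% of all covered exons and 49.0% of those at 10 to 90 PSI in NI. Microexons of up to 27 bases made up 3.1% and 2.65%, against 1.9% and 3.23%. Higher exons were annotated as coding in 85.9% and lower exons in 72.8%, against 86.3% of all covered exons and 75.4% of those at 10 to 90 PSI in NI.

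Changes in splicing and in level met in a part of the genes. Among genes with a higher exon, 99 of 221 in the expression table rose from day 0 (44.8%, against 26.6% of genes with any covered exon). Of those with a higher intron, 86 of 193 rose (44.6%, against 25.7% of genes with any covered intron). Of those with a lower intron, 42 of 73 rose (57.5%) and 4 fell, and of those with a lower exon, 37 of 127 rose (29.1%). Both measures come from the same libraries.

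Events were counted in the same gene lists. By the PSI rule 38 of 2300 covered events in the splicing regulators were called (1.65%, against 0.274% of all events), 29 higher and 9 lower, in 19 of 65 genes. They included *Hnrnpa2b1*, *Hnrnpl*, *Mbnl1*, *Ptbp2*, *Srrm2*, *Srsf1*, *Tia1* and *Tial1*. Contractile genes by contrast had 3 events in 2 genes among 2174 covered (0.138%), and the respiratory chain had none among 1125.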

How the data were processed

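The authors mapped strand-specific paired-end reads to mm10 with STAR 2.7.1a and deposited a gene-level signal, namely CPM (reads per gene relative to the library size) on library sizes scaled with edgeR 3.16.5, after removing genes that were low in most samples or varied little. Absence from the table is therefore not absence of expression, and a listed gene that was low in NI passed through its day 12 libraries. The percent spliced in (PSI) was deposited by the authors as a percent for each annotated event of vast-tools, with coverage scores and corrected inclusion and exclusion reads. Gene values were whole multiples of 1 read (100% within 0.15 read), which gave NI libraries of 104526233 and 108390722 reads, shSCR libraries of 100870046 and 99125788 and knockdown libraries of 98882289 to 105006758, and reads summed over events, where 1 read can serve several, were 229815194 to 265119139 a library. At this depth the spread between libraries, not counting, limits the gene values.

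Here, log2(scaled CPM + 1) was fitted with limma 3.58.1 (R 4.3.3, trended variances) over the 6 groups of the knockdown dataset, with no block. The knockdown value is the mean of the 4 shRNA groups. Tests are two-sided with Benjamini-Hochberg adjustment over all genes and calls at 0.05. The PSI rule is that of the study, extended to all 8 knockdown libraries, for events whose coverage score reached at least VLOW in each of the libraries compared. Read tests used limma on log2((inclusion + 1)/(exclusion + 1)), for events with at least 10 reads of each kind over the 12 libraries. Their weights came from the counting variance expected from a library's reads at the event's inclusion over all 12 libraries, plus a floor of 0.05. Each procedure was also run on simulated data, for which no outcome is given here. Those runs are not taken as a measure of the error rate where same-numbered libraries deviate together. Nor are they taken as one for events near the minimum of 10 reads of each kind. Exon positions and sequences are those of GENCODE vM21 transcripts (mm10), and shRNA targets were matched to them. Python 3.11.15 with pandas 2.3.3 was used for the rest.

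Replicates were numbered libraries, and the labels do not say that they came from separate cultures, so p-values measure the spread between these libraries, which may be technical. Deviations from the group means of same-numbered day 12 libraries correlated at 0.674 to 0.949 over genes and 0.146 to 0.366 over 11834 events, while NI with any other group gave −0.127 to 0.0218 and −0.0416 to 0.0276. The numbers thus paired the day 12 libraries but not NI. The fit with the replicate number as a block is printed beside list counts against shSCR and beside results whose call it changes. Against NI it takes the shared day 12 spread out of the error although that spread does not cancel there, so its adjusted p-values are too small.

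Named genes were both targets, the 10 largest rises and falls against day 0 and the 5 largest in each direction against shSCR with all 8 libraries on 1 side of both controls, the 4 called members with the largest change and the 2 most abundant members of each list, the 3 exons assayed in the study, and the leading events of each class. Predicted genes and pseudogenes were passed over. Members and lists were chosen with earlier results of these data known. Alternatives changed the pseudocount, filter, scaling, correlation, shRNAs, thresholds, weights and libraries. The overexpression table was scaled separately and was tested only within itself. A few genes that this rule names are not reported here.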

Additional observations from a re-analysis of the deposited data

Results flagged for a closer look

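Results were listed for a closer look where the 4 shRNAs differed from each other by the moderated F test of limma, which called 4 genes and 3 events (1173 and 8825 at an unadjusted p under 0.05). All were named after their values were seen. The count for genes was 0 when NI replicate 1 or 2 was left out. *Podxl* (adjusted p = 0.0114) and *Sdc3* (adjusted p = 0.0146) are described above. *Ptgis*, prostacyclin synthase, was 28.6 and 30.003 scaled CPM in NI, 10.4 to 20.01 with the first 3 shRNAs and 73.8 and 49.8 with shUL1#2 (adjusted p = 0.0114), where shSCR had 17.0 and 19.5. *Slc38a4*, an amino acid transporter, was 202 and 228 in NI, 29.0 and 33.7 with shCPSF3#1, 81.9 to 133 with the others and 146 and 145 in shSCR (adjusted p = 0.0114).

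An alternative 3′ splice site of *Bcat2*, a branched-chain aminotransferase, had PSI of 95.99 and 94.04 with shCPSF3#1, 97.5 and 98.04 with shUL1#2 and 100 in the other libraries of the knockdown dataset (adjusted p = 0.0274). The 2 complementary 5′ sites of *Inpp4a*, an inositol polyphosphate phosphatase, differed as well (adjusted p = 0.0346). One of them was at 43.4 and 34.7 with shCPSF3#2, 0 in NI and the other shRNAs and 1.78 and 0 in shSCR, on 28 to 53 reads, while the NI libraries of the overexpression dataset had 53.2 and 29.7.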

How the results depend on the processing

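Pseudocounts of 0.1 and 5, rescaling, quantile normalization and a filter on low genes kept the number of genes changed from day 0 within 1.5 times of 4554, and so did single shRNA pairs and the correlation between same-numbered libraries (4271). With the replicate number as a block it was 6007, or 6064 with the day 0 numbers crossed, a pairing chosen after seeing the data because NI correlated below −0.1 with 3 groups. Leaving out 1 library gave 2347 to 4774.

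Against shSCR, 2087 genes became 4377 with the replicate block, 5358 with the correlation, 5282 with the block over day 12 libraries alone, 987 with only the *Hnrnpul1* shRNAs, 376 and 2 within replicates 1 and 2 alone (1 shSCR library, the 4 shRNAs as 1 group), and 488 to 2625 without 1 library. The 4 genes that differed among shRNAs became 523, 2464 and 2515 with the block, the correlation and the block over day 12 libraries, 0 with only the groups of the contrast, 2 with only the *Cpsf3* and 0 with only the *Hnrnpul1* shRNAs, and 0 to 5 without 1 library. With only the groups of the contrast, *Cpsf3* (−0.997, adjusted p = 0.103) and *Hnrnpul1* (−1.52, adjusted p = 0.0684) were no longer called against shSCR, and without 1 library they ranged from −1.22 to −0.78 and from −1.70 to −1.35. Empty gave 1473 to 5978 without 1 library of its table. The cause of these shifts was not tested, apart from the fewer libraries.

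The PSI rule gave 601 events at 15 PSI, 291 at 20 PSI, 2639 without a gap, 1557 and 1731 with only the *Cpsf3* or *Hnrnpul1* shRNAs, 1618 and 1873 with replicates 1 or 2 alone and 1094 to 2476 without 1 library, since fewer libraries meet the gap more easily. The read test against day 0 gave 1952 events without weights, 1562 on PSI in percent, 3344 with only the *Cpsf3* shRNAs, 6842 with the replicate block and 1253 to 4930 without 1 library. Against shSCR it gave 14, 1645, 1177 with only the *Hnrnpul1* shRNAs, 3776 with the replicate block (4041 over day 12 libraries) and 751 to 2719. A minimum of 240 reads of each kind, also added after seeing the data, kept 21365 events with 4005 and 2878 calls.

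Of 84 named genes called against day 0, 29 lost the call under at least 1 alternative, and of 34 named events 21 did. Against shSCR all 32 named genes and all 4 named events called lost the call under at least 1 alternative, none of them under the replicate block. For the genes this tally is set by the fit of replicates 2 alone, which holds a single shSCR library. The sign turned for 5 genes that were not called, namely *Lrrc17* (0.056) and *Atp5a1* (0.031) in replicates 2 alone, *Pabpc1* (0.070) and *Pkm* (0.12) after quantile normalization, and *Ltbp2* (−0.027 with only the *Hnrnpul1* shRNAs and −0.26 in replicates 2 alone). Without the shUL1#2 libraries 4156 and 1739 genes and 4698 and 2408 events were called against day 0 and shSCR, and 1251 by the PSI rule. Count tests on reads worked back from the scaled values were not run.

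With 2 libraries a group, 1 NI or shSCR library decides many calls. Knockdown libraries of the same number share a large part of their spread. Events with few reads carry little information.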
